A study of Mus musculus with 12 samples.

Results

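The cell cycle and proliferation genes described here are 30 genes of the mouse, chosen by name: 9 that act in DNA replication (Mcm2, Mcm3, Mcm4, Mcm5, Mcm6, Pcna, Rrm2, Tyms and Ccne1) and 21 that act in mitosis or its preparation (Mki67, Top2a, Ccnb1, Ccnb2, Ccna2, Cdk1, Aurka, Aurkb, Bub1, Bub1b, Plk1, Cenpe, Cenpf, Birc5, Cdc20, Ube2c, Kif11, Kif20a, Nusap1, Prc1 and Tpx2). All 30 were found among the 35275 genes of the count table, and all 30 passed the filter on low counts that left 18344 genes for testing. They were measured by poly(A) RNA sequencing of optic nerve from NF1 mice, a mouse model of neurofibromatosis type 1. Carboplatin, a platinum drug that cross-links DNA, had been given in 3 of the 12 libraries, selumetinib, an inhibitor of the MEK kinases, in 3, and phosphate-buffered saline (PBS) in 6. All 12 libraries carry the label NF1, and the labels call the PBS group the control, so the treated mice and their controls share that genotype and no wild-type group was used here. The sources used here give no Nf1 allele, Cre driver, dose, dosing schedule or age. Whether each library is a separate mouse is not stated, and the p-values measure the variation among these libraries, part of which may be technical. The 4 Y-linked genes Ddx3y, Eif2s3y, Kdm5d and Uty had 0 counts in carboplatin 1, in all 3 selumetinib libraries and in PBS 1, and 3377 to 5967 counts in the other 7 libraries. Selumetinib and the sex this points to therefore cannot be told apart, neither against PBS nor against carboplatin, where carboplatin 2 and 3 had Y-linked counts.

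Library totals ran from 27974848 to 33375754 counts in carboplatin, 21793052 to 25400782 in selumetinib and 22558698 to 29779508 in PBS. Levels are given as CPM (counts relative to the library total, scaled with TMM factors), which keep gene length in them, so levels are compared between libraries and never between genes. The labels name the tissue as optic nerve and the cells as nerve cells. Markers of mature oligodendrocytes, the myelinating cells of the nerve, were present in every library, with a summed level of 52175 to 96473 CPM in carboplatin, 19444 to 66538 CPM in selumetinib and 29422 to 70445 CPM in PBS. In bulk tissue, fewer dividing cells and less RNA per dividing cell cannot be told apart.

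A cell that enters S phase turns on replication genes largely through E2F transcription factors, which the retinoblastoma proteins hold back in resting cells. Mitotic genes come on later, through the B-Myb, MuvB and FoxM1 proteins. In resting or arrested cells the DREAM complex keeps them off at promoter elements that include the CHR (cell cycle genes homology region). In the optic nerve of the mouse, oligodendrocyte precursors are among the cells that keep dividing after birth.

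Replication and mitotic genes were also set side by side in their promoter DNA, and whether a motif separates them was not tested. The windows from 250 bases before to 50 bases after the gene start were taken from RefSeq (build GRCm38.p6) for 25 of the 30 genes, all but Aurkb, Kif20a, Tpx2, Ccna2 and Mcm4. The starts are RefSeq's and can differ from those of GENCODE, which gives the gene coordinates below: the Mcm5 start lies 60 bases before the GENCODE start, so that its window ends before it, and those of Rrm2, Cenpf and Mki67 lie within 18 bases of it. The first 20 bases after the RefSeq start were found in a GENCODE transcript of the gene for 16 of the 25. Below are the windows of the replication genes and of the mitotic genes with the smallest p in carboplatin against PBS, a pair of each. Capitals mark a CHR, spelt TTTGAA and in its other form TTCGAA. They also mark a CCAAT box, spelt as its name, and an E2F site. The E2F site was searched as TTTCCCGC, as TTTCGCGC, as TTTGCCGC and as TTTGGCGC, and all motifs on both strands.
Rrm2, chr12:24708004-24708303, plus strand: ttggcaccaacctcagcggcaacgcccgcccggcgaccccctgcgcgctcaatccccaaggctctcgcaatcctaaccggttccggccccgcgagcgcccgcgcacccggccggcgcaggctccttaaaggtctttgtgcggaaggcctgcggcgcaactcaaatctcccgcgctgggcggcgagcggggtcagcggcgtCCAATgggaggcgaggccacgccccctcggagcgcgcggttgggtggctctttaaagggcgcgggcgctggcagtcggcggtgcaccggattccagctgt
Mcm5, chr8:75109259-75109558, plus strand: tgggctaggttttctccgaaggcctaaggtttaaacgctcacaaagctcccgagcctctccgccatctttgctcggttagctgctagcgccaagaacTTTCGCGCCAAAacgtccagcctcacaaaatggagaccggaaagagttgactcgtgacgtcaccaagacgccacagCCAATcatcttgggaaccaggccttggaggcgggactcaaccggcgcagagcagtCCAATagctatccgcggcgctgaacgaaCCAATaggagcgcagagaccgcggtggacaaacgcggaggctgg
Cenpf, chr1:189688037-189688336, minus strand: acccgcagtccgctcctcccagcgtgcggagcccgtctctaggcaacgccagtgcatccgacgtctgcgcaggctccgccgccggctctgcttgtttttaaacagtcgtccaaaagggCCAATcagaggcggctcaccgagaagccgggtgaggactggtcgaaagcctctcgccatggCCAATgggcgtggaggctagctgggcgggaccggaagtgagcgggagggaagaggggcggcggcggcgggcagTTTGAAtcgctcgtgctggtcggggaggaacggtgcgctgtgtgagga
Mki67, chr7:135716330-135716629, minus strand: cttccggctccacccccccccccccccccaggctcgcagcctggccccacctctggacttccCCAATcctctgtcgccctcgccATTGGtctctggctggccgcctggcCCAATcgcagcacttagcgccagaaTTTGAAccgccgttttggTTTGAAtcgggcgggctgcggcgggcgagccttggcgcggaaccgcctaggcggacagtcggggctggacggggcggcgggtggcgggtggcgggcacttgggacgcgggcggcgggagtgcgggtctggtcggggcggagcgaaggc

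In the Cenpf and Mki67 windows the capitals TTTGAA are the CHR and CCAAT or ATTGG the CCAAT box. The Rrm2 window holds a single CCAAT box and the Mcm5 window 3, and neither holds a CHR. In Mcm5, TTTCGCGC and the reverse-strand match GCGCCAAA overlap in 1 run of capitals.

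A CHR stood in 13 of 17 mitotic windows (76.5%), in 1 of 8 replication windows (12.5%, that of Mcm2) and in 19.2% of all 32851 windows. CCAAT boxes stood in 15 of 17 mitotic windows (88.2%), 6 of 8 replication windows (75.0%) and 37.4% of all windows. E2F sites stood in 3 of 8 replication windows (37.5%, those of Mcm3, Mcm5 and Mcm6), in 1 of 17 mitotic windows (5.88%, that of Cdk1) and in 2.27% of all windows. These counts describe letters in a window of fixed length and do not show that a factor binds there.

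**Figure D1:**
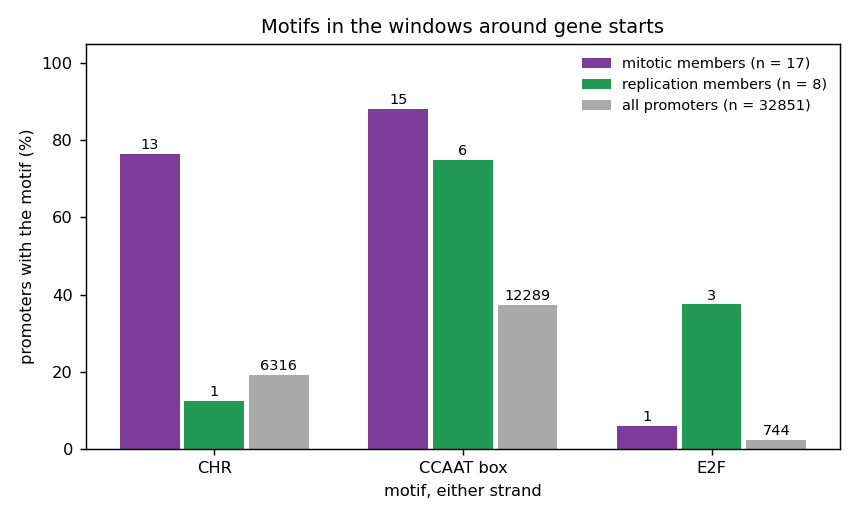
Share of promoter windows (%) that hold a CHR, a CCAAT box or an E2F site on either strand, for 17 mitotic genes, 8 replication genes and all 32851 RefSeq windows; the number above each bar is the count of windows. CHR matches stand in 13 of the mitotic windows and 1 of the replication windows.

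PBS 1 stood apart from the other PBS libraries in these genes. It was the highest of all 12 libraries for 21 of 21 mitotic genes and, among the replication genes, for Rrm2 and Tyms. Over the 20 mitotic genes other than Ube2c, the ratio of PBS 1 to the median of PBS 2 to 6 was 4.03 at its median and ran from 1.5 (Kif20a) to 16.5 (Aurkb). Over the 9 replication genes the same ratio had a median of 1.01 and ran from 0.598 (Mcm4) to 2.91 (Rrm2). Skeletal muscle markers summed to 53683 CPM in PBS 1 against 10.2 to 243 CPM in PBS 2 to 6. Muscle satellite cell markers summed to 42.2 against 0 to 0.394 CPM. Muscle markers were not confined to PBS 1. The skeletal muscle sum was 1523, 1295.5 and 85.5 CPM in carboplatin 1 to 3. The satellite cell sum was 1.905 and 2.528 CPM in carboplatin 1 and 2. Carboplatin 1 and 2 thus lay above PBS 2 to 6 in both sums, and carboplatin 3 lay within their range. The part of muscle in the carboplatin levels was not tested. T cell markers summed to 14.3 CPM in PBS 1 against 4.45 to 8.80 CPM in PBS 2 to 6, and those of oligodendrocyte precursors to 413 against 1187 to 1389 CPM. Macrophage and monocyte, endothelial and fibroblast markers also summed highest in PBS 1, to 138, 457 and 2280 CPM. In PBS 2 to 6 these sums were 54.5 to 114, 193 to 257 and 789 to 1498 CPM. Mature oligodendrocyte, astrocyte, microglia and neuron sums in PBS 1 lay below those of PBS 2 to 6. B cell, neutrophil, erythroid and photoreceptor sums lay within their range. The part of these markers in the mitotic levels of PBS 1 was not tested, and the counts, medians and calls of the 30 genes against PBS are also given without that library.

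**Figure D2:**
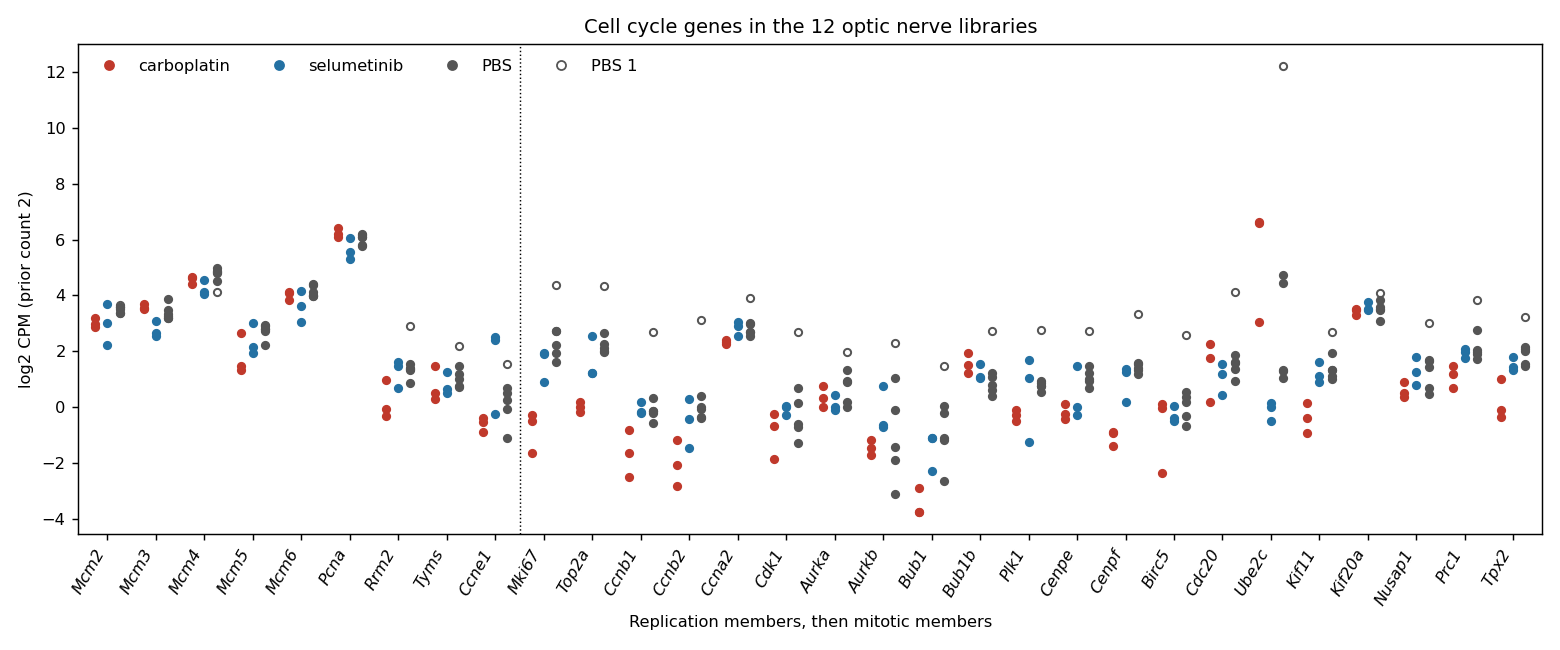
Log2 CPM (prior count 2) of the 30 genes in the 12 libraries, with carboplatin left of selumetinib and PBS, 1 point a library; the open circle is PBS 1 wherever it stands for that gene. The carboplatin points of Mki67, Top2a, Cenpf and Kif11 lie below all points of both other groups.

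The first comparison asks what carboplatin did to these genes. Of the 30 genes, 4 fell and 0 rose (edgeR quasi-likelihood test, Benjamini-Hochberg adjusted p under 0.05 over all genes), while 0.518% of all genes tested fell and 1.57% rose, or 2.09% in either direction. All 4 were mitotic genes: Mki67, Cenpf, Top2a and Kif11. At an unadjusted p under 0.05, 14 of 30 were lower (12 mitotic genes with Rrm2 and Mcm5) against 8.43% of all genes, and 0 were higher, against 8.12%. In 13 of 30, 12 mitotic genes and Mcm2, every carboplatin library lay below every PBS library, which held for 5.23% of all genes. In 0 of 30 did every carboplatin library lie above PBS, which held for 6.97%. The median log2 fold change was -1.77 over the 21 mitotic genes and -0.49 over the 9 replication genes, beside -0.11 over all genes tested. The fold change was negative for 20 of 21 mitotic and 7 of 9 replication genes.

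Without PBS 1 the medians were -1.15 over the mitotic and -0.26 over the replication genes, beside -0.03 over all genes. With that library left out 7 of the 30 fell, all of them mitotic (3.93% of all genes fell and 6.79% rose), and 0 rose: Mki67, Top2a, Cenpf and Kif11 again, with Bub1, Prc1 and Tpx2. DESeq2 called 10 lower (3.67% of all genes) and 0 higher (3.95%) of the 28 to which it gave an adjusted p. Limma voom called 14 lower (12.7%) and 0 higher (17.1%). No member was called when carboplatin 1, 2 or 3 was left out, where 0.634%, 1.03% and 0.389% of all genes were called. Nor was any called with PBS 1 to 3 as the only controls (0.0387%) or with the replicate number as a term (0.0273%). At those shares a count of 0 says little about the members. With PBS 4 to 6 as the only controls, 6 mitotic genes fell (4.26% of all genes) and Ube2c, whose exons overlap Tnnc2, was called higher (8.09%). Without PBS 1, selumetinib 1 and selumetinib 2, 10 of the 30 fell, while 15.9% of all genes changed in either direction: the 4 above with Bub1, Ccnb2, Cenpe, Plk1, Tpx2 and the replication gene Mcm2.

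**Figure D3:**
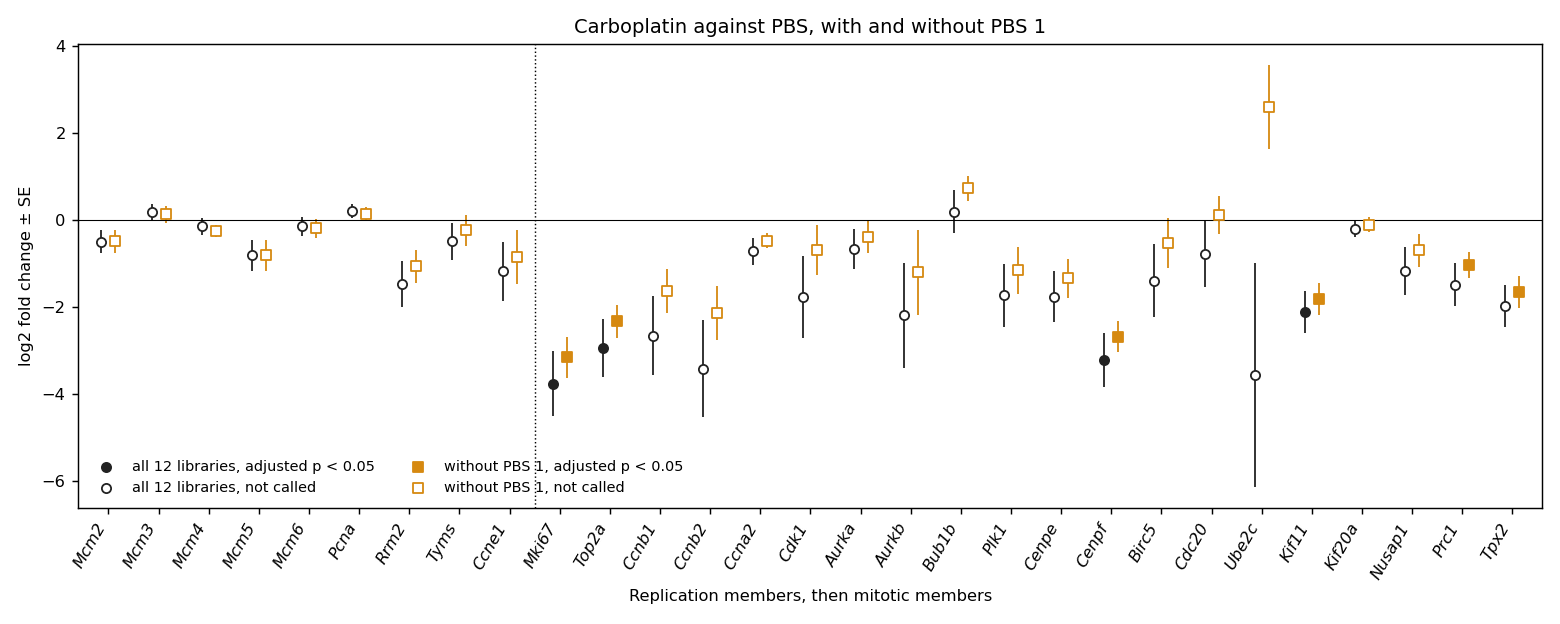
Log2 fold change of carboplatin over PBS with its SE for 29 of the 30 genes, all but Bub1, from all 12 libraries (circles) and without PBS 1 (squares); filled symbols have an adjusted p under 0.05. Mki67 stands at -3.76 with all libraries and at -3.15 without PBS 1, while Pcna and Mcm3 stay near 0.

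Mki67 (chromosome 7, 135689784 to 135716361, minus strand) encodes the Ki-67 protein that coats mitotic chromosomes and is the common marker of dividing cells. It had 0.756, 0.245 and 0.634 CPM in carboplatin 1 to 3, which rest on 25, 6 and 19 counts. In PBS its lowest, median and highest levels were 3.02, 5.55 and 20.7 CPM. The groups did not overlap, and PBS 1 held the highest value. The log2 fold change was -3.76 ± 0.74 (adjusted p 0.0278), where the SE is the fold change over the square root of the F statistic, and -3.15 ± 0.47 without PBS 1 (adjusted p 0.00354). Left out in turn, each of carboplatin 1 to 3, PBS 5 and PBS 6 ended the call (adjusted p up to 0.134), with the fold change between -4.07 and -3.15.

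Cenpf (chromosome 1, 189640606 to 189688086, minus strand) encodes a kinetochore protein that builds up in G2. It had 0.302, 0.449 and 0.467 CPM in carboplatin 1 to 3, from 10, 11 and 14 counts, and 2.19, 2.72 and 9.96 CPM at its lowest, median and highest in PBS. Every carboplatin library lay below every PBS library. Cenpf fell by 3.22 ± 0.62 on the log2 scale (adjusted p 0.0260), and by 2.68 ± 0.36 without PBS 1 (adjusted p 0.00206). Of the 12 fits with a library left out, those without carboplatin 1, 2 or 3 ended the call (adjusted p up to 0.135).

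Top2a (chromosome 11, 98992943 to 99024189, minus strand), the topoisomerase that untangles sister chromatids, had 0.937, 1.06 and 0.801 CPM in carboplatin 1 to 3 and 3.90, 4.49 and 19.9 CPM at its lowest, median and highest in PBS. The groups were apart, with PBS 1 far above the other PBS libraries. Its log2 fold change was -2.94 ± 0.67 (adjusted p 0.0489) and -2.32 ± 0.38 without PBS 1 (adjusted p 0.00549). The call with all libraries was lost without carboplatin 1, 2 or 3, any of PBS 2 to 6, selumetinib 1 or selumetinib 2 (adjusted p up to 0.226).

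Kif11 (chromosome 19, 37376403 to 37421859, plus strand), the kinesin that pushes spindle poles apart, had 0.695, 0.449 and 1.04 CPM in carboplatin 1 to 3. In PBS it had 1.93, 2.44 and 6.33 CPM at its lowest, median and highest, so that the groups were again apart. Its log2 fold change was -2.11 ± 0.48 (adjusted p 0.0488) and -1.81 ± 0.37 without PBS 1 (adjusted p 0.0136). That call too was lost without carboplatin 1, 2 or 3, any of PBS 3 to 6, selumetinib 1 or selumetinib 2 (adjusted p up to 0.189).

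Among the cyclins and kinases of mitosis, none passed the adjusted threshold in carboplatin against PBS by edgeR with all libraries. Ccnb2 and Plk1 did without PBS 1, selumetinib 1 and selumetinib 2 (adjusted p 0.0372 and 0.0366). Ccnb1 and Ccnb2, the B cyclins that activate Cdk1 at mitotic entry, had log2 fold changes of -2.66 ± 0.92 and -3.42 ± 1.12 (adjusted p 0.175 and 0.155). Their carboplatin values, 0.10 to 0.489 CPM for Ccnb1 and 0.0668 to 0.363 CPM for Ccnb2, lay below all PBS values, which began at 0.598 and 0.697 CPM. Those carboplatin values rest on 3 to 12 counts for Ccnb1 and 2 to 12 for Ccnb2, which limits the precision of their fold changes. Without PBS 1 their fold changes were -1.63 and -2.14 (adjusted p 0.0619 and 0.0526). Ccna2, cyclin A2 of S and G2 phase, was also apart, with 4.77 to 5.26 CPM in carboplatin and 5.74 to 15.1 CPM in PBS (log2 -0.72 ± 0.31, adjusted p 0.270, and -0.47 without PBS 1). Plk1, a kinase of spindle assembly and mitotic exit, had 0.634 to 0.856 CPM in carboplatin and 1.38 to 6.71 CPM in PBS (log2 -1.73 ± 0.72, adjusted p 0.263, and -1.15 without PBS 1). Cdk1, Aurka and Aurkb, kinases that drive mitotic entry, the centrosomes and chromosome alignment, overlapped between carboplatin and PBS. Their log2 fold changes were -1.77, -0.67 and -2.19, with adjusted p from 0.379 to 0.502. Without PBS 1 they were -0.69, -0.38 and -1.20 (adjusted p 0.452 to 0.545). With all libraries DESeq2 called Ccnb2 lower (adjusted p 0.00715). Limma voom called Ccnb1, Ccnb2, Ccna2 and Plk1 lower (adjusted p 0.00652, 0.0121, 0.0367 and 0.0262). Cdk1, Aurka and Aurkb were called by neither.

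Bub1 and Bub1b, kinase and pseudokinase of the spindle checkpoint, had fold changes of opposite sign. Bub1 had 2, 0 and 0 counts in carboplatin 1 to 3 and 2 to 58 counts in PBS, or 0 to 0.0605 CPM against 0.0838 to 2.70 CPM. The groups were apart on the CPM scale, and the adjusted p by edgeR was 0.0786 with all libraries and 0.0332 without PBS 1. DESeq2 and limma voom called Bub1 lower with all libraries (adjusted p 0.00418 and 0.0114). A fitted fold change at so few counts depends on the prior count and is not given for it or for the other genes of this kind below. Bub1b had 3.72, 2.77 and 2.24 CPM in carboplatin 1 to 3, against 1.23, 1.87 and 6.61 CPM at its lowest, median and highest in PBS. It was the only mitotic gene with a positive fold change when all libraries were used (0.20 ± 0.50, adjusted p 0.874). Without PBS 1 the value was 0.73 ± 0.28 (adjusted p 0.120).

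The other spindle and kinetochore genes did not pass the edgeR test with all libraries. DESeq2 called Tpx2, Cenpe and Prc1 lower with all libraries (adjusted p 0.000823, 0.0266 and 0.0327), where 3.67% of all genes were lower. So did limma voom (adjusted p 0.000652, 0.00706 and 0.0390), where 12.7% were. Nusap1, Birc5, Cdc20 and Kif20a were called by neither. Tpx2, which activates Aurora A on spindle microtubules, had 0.846, 1.92 and 0.701 CPM in carboplatin 1 to 3 and 2.71, 4.08 and 9.27 CPM at its lowest, median and highest in PBS. The groups were apart, with a log2 fold change of -1.98 ± 0.49 (adjusted p 0.0656), and Tpx2 fell without PBS 1 (-1.66 ± 0.37, adjusted p 0.0186). Prc1, which bundles microtubules of the midzone, had 1.55 to 2.67 CPM in carboplatin and 3.23 to 14.3 CPM in PBS (log2 -1.48 ± 0.50, adjusted p 0.167). It too fell without PBS 1 (-1.03 ± 0.29, adjusted p 0.0486). Cenpe, the kinetochore motor, was apart as well, with 0.665 to 1.00 CPM in carboplatin and 1.55 to 6.47 CPM in PBS (log2 -1.77 ± 0.59, adjusted p 0.161), and fell without PBS 1, selumetinib 1 and selumetinib 2 (-1.35, adjusted p 0.0207). Nusap1, a spindle microtubule protein, Birc5, the survivin subunit of the chromosomal passenger complex, and Cdc20, an activator of the anaphase-promoting complex, overlapped between the groups. Their log2 fold changes were -1.17, -1.39 and -0.79 (adjusted p 0.319, 0.446 and 0.645). Without PBS 1 they were -0.70, -0.54 and 0.11. Kif20a, a kinesin of cytokinesis, had 9.75 to 11.3 CPM in carboplatin and 8.46 to 16.9 CPM in PBS (log2 -0.20 ± 0.20, adjusted p 0.662).

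Of the 9 replication genes, 0 changed between carboplatin and PBS by edgeR with all libraries, with an unadjusted p under 0.05 for 2 lower (Rrm2 and Mcm5) and 0 higher. DESeq2 called 1 lower and limma voom 2, and edgeR called Mcm2 lower without PBS 1, selumetinib 1 and selumetinib 2 (-0.50, adjusted p 0.0386). Pcna, the sliding clamp of the DNA polymerases, had 84.9, 68.4 and 73.3 CPM in carboplatin 1 to 3 and 54.5, 68.6 and 72.8 CPM at its lowest, median and highest in PBS. Carboplatin 1 and 3 lay above all PBS libraries and carboplatin 2 among them (log2 0.21 ± 0.17, adjusted p 0.576).

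The 5 subunits of the MCM2-7 helicase among the 30 genes, which unwinds DNA at replication origins, had fold changes of both signs, none past the test with all libraries. Mcm2 had 7.80, 7.26 and 9.05 CPM in carboplatin 1 to 3 against 10.2, 11.7 and 12.4 CPM at its lowest, median and highest in PBS, with no overlap (log2 -0.50 ± 0.26, adjusted p 0.372). Mcm3, Mcm4 and Mcm6 overlapped between the groups, with log2 fold changes of 0.17 ± 0.19, -0.14 ± 0.20 and -0.14 ± 0.22 (adjusted p 0.689 to 0.777). Mcm5 had 6.26, 2.41 and 2.70 CPM in carboplatin 1 to 3 and 4.61, 6.85 and 7.67 CPM at its lowest, median and highest in PBS. Carboplatin 1 lay within the PBS range and the other carboplatin libraries below it (log2 -0.81 ± 0.36, adjusted p 0.286).

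Rrm2 and Tyms make DNA building blocks, as the small subunit of ribonucleotide reductase and as thymidylate synthase. Rrm2 had 1.87, 0.734 and 0.868 CPM in carboplatin 1 to 3 and 1.73, 2.56 and 7.36 CPM at its lowest, median and highest in PBS (log2 -1.47 ± 0.52, adjusted p 0.189, and -1.06 without PBS 1). Tyms had 1.33, 1.14 and 2.67 CPM in carboplatin and 1.59, 2.05 and 4.47 CPM in PBS (log2 -0.49 ± 0.42, adjusted p 0.604, and -0.24 without PBS 1). Ccne1, cyclin E1, the partner of Cdk2 at S phase entry, had 0.695, 0.612 and 0.467 CPM in carboplatin and 0.394, 1.23 and 2.84 CPM in PBS (log2 -1.18 ± 0.68, adjusted p 0.421). For each of the 3 genes the carboplatin and PBS ranges overlapped.

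Summed by library, the mitotic genes separated carboplatin from PBS and the replication genes did not. The 20 mitotic genes without Ube2c summed to 37.5, 29.6 and 34 CPM in carboplatin 1 to 3, to 51.4, 47.5 and 57.0 CPM in selumetinib 1 to 3, and to 196, 47.3, 55.7, 56.1, 69.1 and 59.6 CPM in PBS 1 to 6. The 9 replication genes summed to 158, 127 and 142 CPM in carboplatin, to 100, 91.7 and 141 CPM in selumetinib, and to 131, 126, 158, 152, 152 and 150 CPM in PBS. All 3 carboplatin libraries had a lower mitotic sum than any other library, while their replication sums lay within the range of PBS. The ratio of the mitotic to the replication sum was 0.237, 0.233 and 0.239 in carboplatin, 0.512, 0.518 and 0.404 in selumetinib, and 1.5, 0.374, 0.352, 0.368, 0.455 and 0.397 in PBS. Those sums weight genes by their level, and Pcna with Mcm4 make up most of the replication sum. The median log2 CPM, which gives each gene equal weight, was -0.19, -0.17 and -0.04 for the 20 mitotic genes in carboplatin, 0.66 to 1.11 in selumetinib and 0.94 to 2.89 in PBS. For the 9 replication genes it was 2.87 to 3.19 in carboplatin, 2.39 to 3.09 in selumetinib and 3.18 to 3.59 in PBS.

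**Figure D4:**
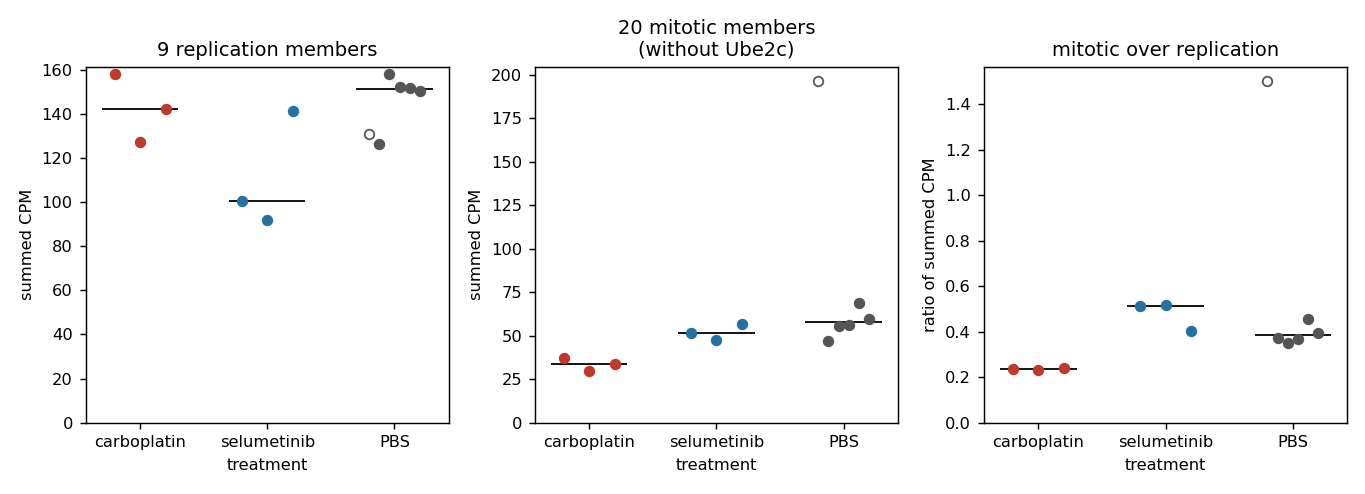
Summed CPM of the 9 replication genes, of the 20 mitotic genes without Ube2c, and the ratio of the mitotic to the replication sum, by treatment; each point is a library, the open circle is PBS 1 and the line is the group median. The carboplatin ratios lie at 0.233 to 0.239, below the other 9 libraries.

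The calls and the sums use genes with and without a CHR. In carboplatin against PBS, 4 of the 14 genes with a CHR in the window fell, and 0 of the 11 without a match, at medians of -1.94 and -1.17 on the log2 scale. The genes without a match are mostly replication genes, so that the motif and the function cannot be told apart here.

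Selumetinib was set against the same 6 PBS libraries, which both comparisons share. Skeletal muscle markers summed to 85.5 CPM or more in carboplatin and in PBS 1 to 3. They summed to 21.5 CPM or less in selumetinib and in PBS 4 to 6. Whether these are separate sets of samples is not stated. Carboplatin against selumetinib cannot be told apart from that split, and each comparison with PBS mixes both sides of it. Of the 30 genes, 0 changed by edgeR, and 0.0% of all genes tested did. At an unadjusted p under 0.05, 1 was higher (Ccne1) and 4 were lower (Mcm3, Mcm4, Mcm6 and Ube2c), against 14.0% and 10% of all genes. DESeq2 called 1 gene lower, Mcm3 (3.43% of all genes), and 0 higher (8.97%). Limma voom called 1 higher (29.0% of all genes) and 9 lower (26.4%), in all 33.3% of the members and 55.4% of all genes. Mcm3 and Ube2c were the only members whose selumetinib libraries all lay below PBS (2 of 30, against 2.7% of all genes, with the overlap of Ube2c described below), and in 0 of 30 did all lie above PBS (3.23%). The median log2 fold change was -0.95 over the mitotic genes and -0.43 over the replication genes, beside -0.09 over all genes. Without PBS 1 these medians were -0.34 and -0.40, beside -0.01.

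The selumetinib libraries did not agree among themselves in the replication genes. Mcm3 had 5.73, 6.18 and 8.42 CPM in selumetinib 1 to 3 and 9.0, 9.75 and 14.7 CPM at its lowest, median and highest in PBS (log2 -0.64 ± 0.20, adjusted p 0.113). Mcm2 had 8.07, 4.58 and 12.7 CPM in selumetinib, with the last above every PBS library, and Pcna had 46.6, 39.8 and 66.2 CPM. In these genes selumetinib 1 and 2 lay below all PBS libraries and selumetinib 3 did so only for Mcm3. Without selumetinib 3, Mcm2, Mcm3, Mcm6 and Pcna fell, by 0.82, 0.80, 0.78 and 0.57 on the log2 scale (adjusted p 0.0274 to 0.0311), and Ccne1 rose (2.04, adjusted p 0.0191). In that fit 8.88% of all genes fell and 12.7% rose, in all 21.6%, against 16.7% of the members.

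Ccne1 had 5.59, 5.18 and 0.770 CPM in selumetinib 1 to 3 and 0.394, 1.23 and 2.84 CPM at its lowest, median and highest in PBS (log2 1.51 ± 0.61, adjusted p 0.169). Selumetinib 1 and 2 lay above all PBS libraries and selumetinib 3 among them. The same libraries were apart in cell type markers: neuron markers summed to 1267.7, 1522.5 and 178 CPM in selumetinib 1 to 3 and to 43.9 to 293 CPM in PBS. Mature oligodendrocyte markers summed to 28250, 19444 and 66538 CPM in selumetinib 1 to 3. The part of these markers in the levels of Ccne1 and the MCM genes was not tested.

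Among the mitotic genes, Mki67 had 3.71, 1.78 and 3.64 CPM in selumetinib 1 to 3 (log2 -1.30 ± 0.64 against PBS, adjusted p 0.233, and -0.68 without PBS 1). Top2a had 2.26, 2.24 and 5.82 CPM (log2 -1.06 ± 0.59, adjusted p 0.287, and -0.43 without PBS 1). Cenpf had 2.30, 1.07 and 2.52 CPM (log2 -0.96 ± 0.54, adjusted p 0.290, and -0.40 without PBS 1) and Kif11 2.97, 1.81 and 2.10 CPM (log2 -0.46 ± 0.44, adjusted p 0.510, and -0.15 without PBS 1). All 4 overlapped with PBS, and their selumetinib values all lay above those in carboplatin.

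The drugs were also set against each other, a comparison that shares its carboplatin and its selumetinib libraries with those against PBS. Carboplatin was higher than selumetinib for 1 of the 30 genes, Mcm3, and lower for 3, Ccne1, Mki67 and Cenpf, while 5.65% of all genes were higher and 8.35% lower. With no adjustment of p, 2 members passed 0.05 as higher (13.6% of all genes) and 7 as lower (17.9%). The groups were apart with carboplatin higher in 3 genes (20.9% of all genes), Mcm3, Pcna and Ube2c, and lower in 11 (20.8%). The medians were -0.83 over the mitotic and -0.01 over the replication genes, beside -0.01 over all genes. Without PBS 1, which enters here only through the shared estimate of the spread, 3 genes were higher (14.9% of all genes) and 8 lower (18.1%). DESeq2 called 2 higher (9.68%) and 6 lower (14.9%), and limma voom 4 higher (30%) and 13 lower (28.9%). The members called came to 13.3% by edgeR (14.0% of all genes), 28.6% by DESeq2 (24.6%) and 56.7% by limma voom (58.8%), shares close to those of all genes.

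Mcm3 had 12.7, 11.6 and 11.4 CPM in carboplatin 1 to 3 against 5.73, 6.18 and 8.42 CPM in selumetinib 1 to 3, a log2 fold change of 0.81 ± 0.23 (adjusted p 0.0400). Mki67 had a log2 fold change of -2.46 ± 0.74 (adjusted p 0.0497), Cenpf of -2.26 ± 0.64 (adjusted p 0.0418) and Ccne1 of -2.69 ± 0.78 (adjusted p 0.0439). For all 4 genes the libraries of the drugs were apart, although Ccne1 in selumetinib 3, at 0.770 CPM, stood close above the highest carboplatin value of 0.695 CPM. Each of these calls was lost in 8 to 10 of the 12 fits with a library left out, among them those without carboplatin 1, 2 or 3, selumetinib 1 or 2, PBS 5 or PBS 6 (adjusted p up to 0.163). The others were those without PBS 2 or 4 for Mcm3 and Ccne1, without PBS 3 for Mki67 and Cenpf, and without PBS 4 or selumetinib 3 for Mki67. With PBS 1 left out, Pcna was higher in carboplatin too (0.55 ± 0.18, adjusted p 0.0373), and Top2a, Ccnb1, Bub1, Kif11 and Tpx2 were lower. The third gene counted as higher was Ube2c, whose counts cannot be told apart from those of Tnnc2.

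Ube2c, the ubiquitin-conjugating enzyme of the anaphase-promoting complex, had counts close to those of a neighbouring gene in 6 libraries. Its exons share 592 bases, 22.8% of their length, with Tnnc2, the troponin C of fast skeletal muscle, on the opposite strand (Ube2c lies on chromosome 2, 164769898 to 164778822, plus strand). Ube2c and Tnnc2 had 3249 and 3803 counts in carboplatin 1, 2365 and 2883 in carboplatin 2, and 247 and 271 in carboplatin 3. In selumetinib 1 to 3 Ube2c had 26, 18 and 24 counts and Tnnc2 had 0, 0 and 1. In PBS 1 to 3 the pairs were 101405 and 108932, 523 and 522, and 817 and 881 counts, and in PBS 4 to 6 they were 61 and 0, 48 and 4, and 72 and 0.

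Tnnc2 had at least 271 counts in 6 libraries, in which the counts of both genes were close, and at most 4 in the other 6, in which Ube2c had 18 to 72. The strand setting of the counting was not given in the sources used here, so reads of the shared bases cannot be assigned to either gene. In CPM, Ube2c had 98.2, 96.4 and 8.25 in carboplatin, 0.920, 0.639 and 1.03 in selumetinib, and 1.98, 12.2 and 4722 at its lowest, median and highest in PBS. The fold change of carboplatin over PBS was -3.56 ± 2.58 with all libraries (adjusted p 0.530), 2.60 ± 0.96 without PBS 1 (adjusted p 0.108) and 4.90 with PBS 4 to 6 as the only controls (adjusted p 0.0107). The sign turned with the choice of PBS libraries, and no direction is given for Ube2c.

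**Figure D5:**
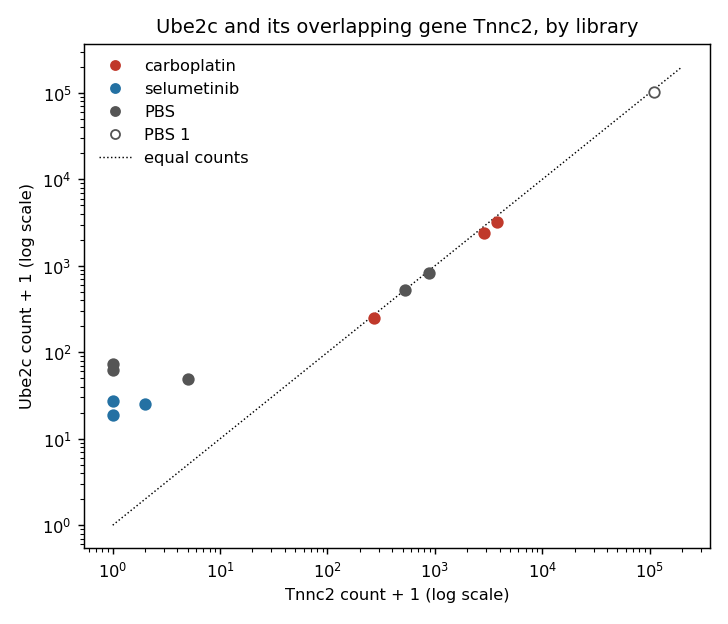
Counts of Ube2c against counts of the overlapping gene Tnnc2 in the 12 libraries, 1 added to each, on log axes; the dotted line marks equal counts. The 6 libraries with at least 271 counts of Tnnc2 lie along the line and the other 6 lie at 18 to 72 counts of Ube2c.

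Another 5 members share exonic bases with a counted gene on the opposite strand: Kif20a with Cdc23 (29.3% of its exonic length), Ccna2 with Exosc9 (12.5%), Prc1 with Rccd1 (11.1%), Nusap1 with Oip5 (4.24%) and Cdc20 with Elovl1 (2.84%). In these, too, reads of the shared bases cannot be assigned to either gene, while the rest of the exonic length is not shared with that neighbour. Over the 15 mitotic genes with no such overlap, the median log2 fold change of carboplatin over PBS was -2.11, and -1.63 without PBS 1. Pcna, Tyms, Ccnb1 and Ccnb2 have pseudogenes in the annotation, so that reads may be split between near-identical copies.

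Further genes of the same pathways were read from lists. In carboplatin against PBS, 2 of 28 other replication genes rose (1.57% of all genes) and 0 fell (0.518%). Their median log2 fold change was -0.07, beside -0.11 over all genes. Fen1, the nuclease that trims Okazaki fragments, had 14.9, 11.7 and 13.8 CPM in carboplatin 1 to 3 and 6.57, 6.90 and 8.52 CPM at its lowest, median and highest in PBS. Mcm7, another helicase subunit, had 31.8, 33.7 and 34.3 CPM in carboplatin and 17.8, 21.9 and 24.1 CPM in PBS. For both genes the groups were apart, with log2 fold changes of 0.91 ± 0.16 (adjusted p 0.0158) and 0.62 ± 0.11 (adjusted p 0.0210). Leaving out carboplatin 1 or 3 ended the call of Fen1 (adjusted p up to 0.0972), and leaving out carboplatin 1, 2 or 3 or PBS 5 that of Mcm7 (adjusted p up to 0.118). Next came Dtl, a substrate adaptor of a ubiquitin ligase that acts with PCNA, with 0.272, 0.0816 and 0.10 CPM in carboplatin, from 9, 2 and 3 counts, and 0.465, 0.612 and 1.63 CPM in PBS (adjusted p 0.0868).

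Of 40 other mitotic genes 1 fell (0.518% of all genes) and 0 rose (1.57%). An unadjusted p under 0.05 was found for 19 lower (8.43% of all genes) and 1 higher (8.12%). Their median log2 fold change was -1.44, and -0.71 without PBS 1. Hmmr, a spindle protein, had 0.0605, 0.0408 and 0.0334 CPM in carboplatin 1 to 3, from 2, 1 and 1 counts, and 0.432, 0.857 and 5.77 CPM at its lowest, median and highest in PBS (adjusted p 0.0452). Its call was lost in 10 of 12 fits with a library left out, all except those without PBS 1 or selumetinib 3 (adjusted p up to 0.217). Troap had 0, 0 and 0.0668 CPM in carboplatin and 0.168 to 1.21 CPM in PBS (adjusted p 0.0517), and Kif18b, a kinesin, had 0.0668 to 0.0907 CPM in carboplatin, from 2 to 3 counts, and 0.230 to 1.40 CPM in PBS (adjusted p 0.0589). In all 3 the groups were apart. Without PBS 1, 7 of the 39 then tested fell, and 3.93% of all genes did.

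Of 7 inhibitors of cyclin-dependent kinases 1 rose (1.57% of all genes) and 0 fell (0.518%) in carboplatin against PBS. Cdkn1a, which encodes p21 and is a classical target of p53 after DNA damage, had 590, 282 and 436 CPM in carboplatin 1 to 3. In selumetinib 1 to 3 it had 12, 14.6 and 26 CPM, and in PBS 14.1, 33.5 and 90.8 CPM at its lowest, median and highest. All carboplatin libraries lay above all others. The log2 fold change was 3.51 ± 0.49 over PBS (adjusted p 0.00536) and 4.64 ± 0.67 over selumetinib (adjusted p 0.00668), and both calls held in 12 of 12 fits with a library left out. Cdkn1b and Cdkn1c, the p27 and p57 inhibitors, had log2 fold changes of 0.20 and 0.45 in carboplatin over PBS (adjusted p 0.475 and 0.522). For Cdkn1b the carboplatin values, 98.1 to 111 CPM, lay above those of PBS, 76.4 to 96.3 CPM, and for Cdkn1c the groups overlapped.

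Among 19 regulators of E2F, RB, MuvB and FoxM1, 1 rose (1.57% of all genes) and 1 fell (0.518%) in carboplatin against PBS, with a median of -0.13. Foxm1, the transcription factor of late mitotic genes, had 1.48, 1.06 and 1.2 CPM in carboplatin 1 to 3 and 2.67, 3.89 and 6.52 CPM at its lowest, median and highest in PBS (log2 -1.73 ± 0.39, adjusted p 0.0451). Lin52, a MuvB subunit, had 43.8, 55.9 and 47.2 CPM in carboplatin and 30.3, 31.6 and 34.8 CPM in PBS (log2 0.60 ± 0.11, adjusted p 0.0188). Rbl1, the p107 pocket protein, had 3.67 to 5.01 CPM in carboplatin and 6.69 to 13.7 CPM in PBS (log2 -1.13 ± 0.28, adjusted p 0.0651). The groups were apart in all 3. The call of Foxm1 was lost in 9 of 12 fits with a library left out, all except those without PBS 1, selumetinib 1 or selumetinib 3 (adjusted p up to 0.215). That of Lin52 was lost without carboplatin 2, carboplatin 3, PBS 4 or PBS 5 (adjusted p up to 0.0820). Of 8 G1 cyclins and kinases 0 changed by edgeR, 0 had an unadjusted p under 0.05 and DESeq2 called 0. In this list limma voom called 1 higher (17.1% of all genes) and 1 lower (12.7%). The smallest edgeR p-values of the list were those of Cdc25a, a phosphatase that activates the kinases (0.31 ± 0.16, adjusted p 0.375), Cdk4 (-0.24 ± 0.12, adjusted p 0.378) and Ccnd1, cyclin D1 (-0.46 ± 0.36, adjusted p 0.563).

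In selumetinib against PBS edgeR called 0 genes in each of these 5 lists. At an unadjusted p under 0.05 it found 1 higher and 4 lower of the other replication genes, 1 and 6 of the other mitotic genes, 1 and 2 of the G1 cyclins and kinases, 0 and 1 of the kinase inhibitors, and 1 and 1 of the regulators. DESeq2 called 0 higher and 3 lower, 1 and 2, 1 and 0, 0 and 1, and 0 and 0 in the same order, and limma voom 2 and 7, 3 and 15, 1 and 4, 1 and 4, and 6 and 10. Over all genes DESeq2 called 8.97% higher and 3.43% lower, and limma voom 29.0% and 26.4%. Ccne2, cyclin E2, the relative of Ccne1, had 9.91, 9.59 and 6.71 CPM in selumetinib 1 to 3 and 4.53, 5.63 and 6.61 CPM at its lowest, median and highest in PBS (log2 0.64 ± 0.21, adjusted p 0.120). Its selumetinib libraries all lay above PBS. Next in that list were Ccnd3 and Ccnd2, D-type cyclins, at -0.60 ± 0.21 and -0.81 ± 0.31 (adjusted p 0.137 and 0.156).

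Among the other lists in selumetinib against PBS, the smallest p-values of the replication genes were those of Rrm1, the large subunit of ribonucleotide reductase (-0.43 ± 0.13, adjusted p 0.0980), Pole (-1.01 ± 0.33, adjusted p 0.121) and Gins4 (-0.43 ± 0.15, adjusted p 0.131). Rrm1 had 26.2, 24.5 and 28 CPM in selumetinib 1 to 3 and 28.7, 36.6 and 39.8 CPM at its lowest, median and highest in PBS, without overlap. Of the mitotic genes they were those of Cit (1.65 ± 0.53, adjusted p 0.117), the separase Espl1 (-1.09 ± 0.42, adjusted p 0.156) and the kinetochore scaffold Knl1 (3, 1 and 12 counts in selumetinib 1 to 3, adjusted p 0.158), and for all 3 the groups overlapped. Of the kinase inhibitors they were those of Cdkn2c, or p18 (-1.19 ± 0.35, adjusted p 0.104), Cdkn1a (-1.13 ± 0.53, adjusted p 0.216) and Cdkn2b, or p15 (-1.37 ± 0.68, adjusted p 0.236). Of the regulators they were those of Tfdp2 (-0.44 ± 0.17, adjusted p 0.163), the MuvB subunit Lin9 (0.46 ± 0.21, adjusted p 0.201) and Rbl1 (-0.56 ± 0.27, adjusted p 0.224).

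In carboplatin against selumetinib, 5.65% of all genes tested were higher and 8.35% lower by edgeR. Of 28 other replication genes 3 were higher and 2 lower, led by Mcm7 (0.82 ± 0.14, adjusted p 0.00983), Pole, a DNA polymerase subunit (1.40 ± 0.37, adjusted p 0.0349), and Gins2, a subunit of the replicative helicase complex (-0.73 ± 0.20, adjusted p 0.0365). The counts of lower genes in the replication and mitotic lists were close to the share of all genes. Of 40 other mitotic genes 1 was higher, the chromosome motor Kif4 (2.13 ± 0.48, adjusted p 0.0222), and 3 were lower. These include Cit, a kinase of cytokinesis (-2.98 ± 0.69, adjusted p 0.0227), and the kinesin Kif15 (-2.34 ± 0.68, adjusted p 0.0437). Cit had 6.20, 6.61 and 6.44 CPM in carboplatin and 60.3, 76.5 and 15.4 CPM in selumetinib, so its highest values lay in the same selumetinib libraries as those of the neuron markers. Of 19 regulators 3 were higher and 0 lower: Tfdp2, a partner of E2F (1.06 ± 0.20, adjusted p 0.0136), Rbl2, the p130 protein of DREAM (0.67 ± 0.15, adjusted p 0.0205), and Lin52 (0.44 ± 0.13, adjusted p 0.0446).

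Of those calls between the drugs, with a library left out, that of Mcm7 was lost without selumetinib 1 or 2 (adjusted p up to 0.0596). Those of Pole, Cit and Rbl2 were lost without carboplatin 1, 2 or 3 or selumetinib 1 or 2 (up to 0.133), that of Kif4 without carboplatin 1 or 2 or selumetinib 1 or 2 (up to 0.0960), and that of Tfdp2 without carboplatin 3 or selumetinib 1 or 2 (up to 0.0736). The call of Gins2 was lost in 9 of 12 such fits, all except those without PBS 1, PBS 3 or selumetinib 3, and that of Kif15 in 8 of 12, all except those without PBS 1, PBS 2, PBS 5 or selumetinib 3. Lin52 was called only without PBS 1. Of the 7 kinase inhibitors Cdkn1a alone was called, with Cdkn2c (1.1 ± 0.39, adjusted p 0.0816) and Cdkn1c (1.04 ± 0.38, adjusted p 0.0882) next. Of the 8 G1 cyclins and kinases edgeR called 0. At an unadjusted p under 0.05, 1 was higher (13.6% of all genes) and 1 lower (17.9%). DESeq2 called 1 higher (9.68% of all genes) and 1 lower (14.9%) among these cyclins and kinases. They were led by Ccne2 (-0.73 ± 0.25, adjusted p 0.0715), Ccnd3 (0.67 ± 0.24, adjusted p 0.0815) and Cdk2 (0.52 ± 0.34, adjusted p 0.326).

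Marker lists of further cell types are given beside the mitotic genes. In carboplatin against PBS edgeR called 0.518% of all genes lower and 1.57% higher. At an unadjusted p under 0.05, 8.43% were lower. DESeq2 called 3.67% lower, and limma voom 12.7% lower and 17.1% higher. The 9 markers of oligodendrocyte precursors measured summed to 1095 to 1256 CPM in carboplatin, 781 to 1128 CPM in selumetinib and 1187 to 1389 CPM in PBS 2 to 6, and 0 of 9 changed in carboplatin against PBS by edgeR (0 at an unadjusted p under 0.05, 0 by DESeq2, 1 higher and 2 lower by limma voom). The 8 erythroid markers measured, of cells whose precursors divide, summed to 12.8 to 87.4 CPM in carboplatin, 631 to 1502 CPM in selumetinib and 241 to 7893 CPM in PBS, and 5 of the 7 tested fell in carboplatin against PBS, with 1 of the 8 at 0 in all carboplatin libraries. The 7 T cell markers summed to 1.75 to 2.67 CPM in carboplatin, 6.92 to 7.61 CPM in selumetinib and 4.45 to 14.3 CPM in PBS, and 1 of 7 fell. The 7 macrophage and monocyte markers summed to 19.0 to 55.0 CPM in carboplatin, 26.7 to 93.7 CPM in selumetinib and 54.5 to 138 CPM in PBS, and 1 of 7 fell. The 5 fibroblast markers summed to 348 to 721 CPM in carboplatin, 289 to 1450 CPM in selumetinib and 789 to 2280 CPM in PBS. Carboplatin thus lay below PBS with PBS 1 the highest, as in the mitotic sum and in the T cell sum. By edgeR 0 of 5 changed in carboplatin against PBS, with 3 lower at an unadjusted p under 0.05, and DESeq2 called 2 lower and limma voom 4. The 9 markers of neutrophils and their precursors summed to 5.95 to 61.1 CPM in carboplatin, 7.17 to 10.9 CPM in selumetinib and 22.4 to 86.2 CPM in PBS, where 0 of 9 changed in carboplatin by edgeR, 3 were lower at an unadjusted p under 0.05, and DESeq2 called 3 lower and limma voom 1; 1 of the 9 was at 0 in all carboplatin libraries. The 6 B cell markers summed to 1.02 to 4.35 CPM in carboplatin, 2.41 to 4.58 CPM in selumetinib and 2.16 to 11.2 CPM in PBS, and 1 of the 5 tested fell, with 3 of the 6 at 0 in all carboplatin libraries. Photoreceptor markers, of the neighbouring retina, summed to 38.1 to 1502 CPM in carboplatin, 0.428 to 1.78 CPM in selumetinib and 0.577 to 123 CPM in PBS. In carboplatin against PBS by edgeR, 2 of 7 astrocyte markers rose and 0 fell, and 1 of 8 microglia markers fell and 0 rose. Of 6 endothelial markers 0 changed. The part of these cells in the levels of the mitotic genes was not tested.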

How the data were processed

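Optic nerve poly(A) RNA was sequenced in 12 libraries. Per the labels' protocols, total RNA came from a column kit and messenger RNA from poly-T beads. The authors deposited whole-number counts of reads per gene, not normalized, as a single table. The submitters' processing notes list FastQC, Trimmomatic, STAR, HTSeq, DESeq2 and the build mm10. Tool versions, annotation and strandedness of the counting are not given in the sources used here. Groups follow the treatment label and replicate numbers the titles.

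Of 35275 genes, 18344 passed filterByExpr (at least 10 counts in enough libraries and 15 in all). TMM factors gave the CPM values, and edgeR 4.0.16 in R 4.3.3 fitted the 3 groups over the 12 libraries together (robust quasi-likelihood test, common dispersion 0.272). A gene was called at a Benjamini-Hochberg adjusted p under 0.05 over all genes tested. Each result was recomputed with DESeq2 1.42.0, with limma 3.58.1 (voom with quality weights), with RLE factors, unfiltered, with at least 1 CPM required in 3 libraries, with just the pair of groups in the model, with either PBS 1 to 3 or PBS 4 to 6 alone, without PBS 1, selumetinib 1 and selumetinib 2, with replicate number in the model, and leaving out single libraries. The edgeR test was tried first on simulated counts with less spread than these data and with no library set apart. That trial does not show how the test behaves at the spread of these libraries.

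The 30 genes and all lists were chosen with earlier results of these data known. By rule all 30, Cdkn1a and, of each further list, the 3 genes with the smallest p in a comparison are named. Coordinates and overlaps are from GENCODE M21, which holds 34490 of the gene IDs, and promoter windows from RefSeq (GRCm38.p6).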

Additional observations from a re-analysis of the deposited data

Results flagged for a closer look

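In the 6 PBS libraries, the gap between the highest or lowest value and its nearest neighbour, divided by the range, was set against Dixon's 95% critical value for 6 values, for each of the 30 genes. The gap was larger for 20 of them. The genes share the same 6 libraries, so these gaps are not independent and are not set against a chance rate. PBS 1 had already been set apart in these same data, so the gaps describe it and give no further support. In 18 the outlying value was PBS 1, the highest. The gap was 0.995 for Ube2c, 0.933 for Ccnb2, 0.911 for Cenpf, 0.910 for Plk1, 0.898 for Ccnb1, 0.887 for Cdc20, 0.852 for Top2a and 0.846 for Birc5. It was 0.809 for Rrm2, 0.808 for Bub1b, 0.802 for Mki67, 0.802 for Cdk1, 0.773 for Cenpe, 0.753 for Tpx2, 0.751 for Ccna2, 0.730 for Nusap1, 0.681 for Prc1 and 0.670 for Bub1. For Mcm3 the highest value was PBS 3 (gap 0.644), and for Mcm5 the lowest was PBS 2 (gap 0.653).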

How the results depend on the processing

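In carboplatin against PBS the members called numbered 4 (2.09% of all genes were called), and 10 by DESeq2 (7.62%), 14 by limma voom (29.8%), 2 with no filter (1.14%), 2 with only the groups compared (1.99%), 0 with PBS 1 to 3 (0.0387%) and 7 with PBS 4 to 6 (12.3%) as controls, 10 without PBS 1, selumetinib 1 and selumetinib 2 (15.9%), and 0 to 7 with a library left out. Correlations of same-numbered deviations were -0.02 to 0.23 for carboplatin with PBS, -0.12 to 0.38 for selumetinib with PBS and 0.01 to 0.10 between the drugs. With PBS, the same number gave the highest correlation for carboplatin 1 and for selumetinib 2 and 3. Whether samples are paired is not settled by these values. With the replicate number as a block 0 members were called (0.0273% of all genes), as in carboplatin against selumetinib (0.273%). PBS 4 to 6 carry numbers that no treated library has, so they add nothing to the comparison in that fit. The mitotic median was -1.10 by limma voom and -1.96 to -1.15 with a library left out. The replication median was -0.22 by limma voom, -0.31 with PBS 4 to 6, -0.26 without the 3 libraries that stand apart, and -0.58 to -0.26 with a library left out. Ube2c reversed to 4.90 with PBS 4 to 6.

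In selumetinib against PBS 0 members were called, and 1 by DESeq2 (12.4% of all genes), 10 by limma voom (55.4%) and 0 to 5 with a library left out. Without PBS 1, selumetinib 1 and selumetinib 2, a fit that leaves selumetinib 3 alone, assumed to vary like the other groups, and calls 0.0% of all genes, the mitotic median was -0.081 and the replication median -0.050. The mitotic median was -0.17 by limma voom and -1.10 to -0.34 with a library left out, and the replication median -0.60 to -0.20. In carboplatin against selumetinib 4 were called (14.0% of all genes), and 8 by DESeq2 (24.6%), 17 by limma voom (58.8%), 0 with no filter (7.12%) and 0 to 11 with a library left out. The mitotic median was -1.19 to -0.83 and the replication median -0.19 to 0.33 there. The causes were not tested. The 4 genes called in carboplatin against PBS rest on 6 to 31 counts in each carboplatin library, which limits the precision of their fold changes.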
